A study of Mus musculus with 6 samples.

Results

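The genes described here are the mouse MAP kinase cascade genes, taken as every gene whose symbol reads Map4k, Map3k, Map2k, Mapk or Mapkapk followed by a number, except Map3k7, which was left out. The rule uses symbols only and no measured value. It gave 43 of the 23836 genes in the deposited expression sheet, 5 in the MAP4K tier, 15 in the MAP3K tier, 7 in the MAP2K tier, 13 in the MAPK tier and 3 in the MAPKAPK tier. Of these, 33 averaged 1 RPKM or more across the 6 libraries, as did 10531 genes in all (the genes tested below). RPKM is the number of reads scaled to transcript length and to the mapped reads of the library, so that levels of genes of unlike length can be set side by side.

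The study deleted Mettl3, the enzyme that places N6-methyladenosine (m6A) in mRNA, and followed mRNA decay in mature dendritic cells (maDC). The KO group is labelled Mettl3-/- and came from Mettl3 fl/fl CD11c-Cre mice, in which Cre is driven by the CD11c promoter and removes an early stretch of exons. The WT group is labelled wildtype and came from Mettl3 fl/fl littermates without Cre, so both groups carry the floxed alleles. Both groups were C57BL/6 bone marrow from mice of 6 weeks, cultured in IL-4 (1 ng/ml) plus GM-CSF (10 ng/ml), selected on day 5 with beads against CD11c and then matured over 24 h in LPS at 100 ng/ml. Actinomycin D, which blocks transcription, was added 0, 3 or 6 h before the cells were collected. Whether the 24 h of LPS ended at that addition or at collection is not stated. There was 1 library per genotype and time, so differences have no replicate check and no test was possible. The sample titles carry D2 for every KO library and D3 for every WT library. If these marks stand for batches, batch and genotype cannot be told apart.

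In a MAP kinase cascade each kinase phosphorylates the next. MAP4Ks act at the receptor end on MAP3Ks, MAP3Ks activate MAP2Ks, MAP2Ks phosphorylate both a threonine and a tyrosine of a MAPK, and MAPKs activate further kinases such as the MAPKAPKs. In dendritic cells and macrophages LPS acts through TLR4 on ERK (by Tpl2 and the MEK kinases), on JNK (by MKK4 and MKK7) and on p38 (by MKK3 and MKK6). The p38 target MK2 is known for controlling cytokine mRNAs that carry AU-rich elements in their 3′UTR.

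AU-rich elements are also the best known sequence of unstable mRNAs, and for that reason the 3′UTRs of the cascade genes were searched on the sense strand for ATTTA and for the longer TATTTAT, which contains it. Of the 33 members tested, 21 held ATTTA (63.6%, against 65.9% of all genes tested that had a transcript) and 8 held TATTTAT (24.2%, against 27.5%). Among genes with 3′UTRs of at least 500 bases, the first 500 bases held TATTTAT in 3 of 25 members (12.0%), against 11.8% of all genes tested. The sites below are shown because they include the 2 longest-lived mRNAs that held TATTTAT, Map4k2 and Map3k12, beside sites in Map2k1 and Map4k5, which decayed faster than the median gene. The capitals mark TATTTAT. The positions are mm10, the Map4k2 site is on the plus strand, and the other sites are on the minus strand.
Map4k2 (chr19:6355107-6355135): agacataatttTATTTATgtatttgttta
Map3k12 (chr15:102500032-102500060): acatagagaaaTATTTATataaataatat
Map2k1 (chr9:64186045-64186073): ttgtatttctaTATTTATttttaaatata
Map4k5 (chr12:69804763-69804791): tatttaatcctTATTTATtaatctcttgc

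Approximate depth lay between 18200000 and 21600000 reads per library, and the tested members had from 67 to 13374 reads in a library by the same estimate. All 8 dendritic cell markers were above 1 RPKM in every library, and the 7 T and B cell markers summed to between 4.52 and 6.94 RPKM. The 10 neutrophil markers summed to 14408, 10603 and 7007 RPKM in KO maDC at 0, 3 and 6 h and to 7481, 8201 and 6923 RPKM in WT maDC, with Elane at 0 in both 6 h libraries. The macrophage markers found summed to between 999 and 1858 RPKM in KO maDC and between 921 and 1547 RPKM in WT maDC, with Cd163 at 0 in all 6 libraries. Mettl3 was read at 6.99, 4.83 and 4.06 RPKM in KO maDC and at 7.79, 2.68 and 2.59 RPKM in WT maDC, over the whole gene, which does not check a deletion of some exons.

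For decay, RPKM was scaled by 1 factor per library from the ERCC transcripts, synthetic RNAs added in proportion to total RNA, so a scaled amount is mRNA per total RNA. The factors, set to 1 for WT at 0 h, were 1.29, 0.302 and 0.410 for KO maDC at 0, 3 and 6 h, and 0.362 and 0.191 for WT maDC at 3 and 6 h. The half-life is taken from the mean of the decay rates over 0 to 3 h and 0 to 6 h. Every half-life in hours rests on these few factors, whereas ratios between genes within a library do not.

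The cascade mRNAs were on the short-lived side. Their median half-life was 1.20 h in KO maDC, against 1.37 h for all genes tested there, and 1.25 h in WT maDC, against 1.45 h for all genes. Half-lives were below that of the median gene for 20 of 33 members in KO maDC and for 23 of 33 in WT maDC. They ran between 0.774 and 2.05 h in KO maDC and between 0.814 and 2.86 h in WT maDC. By tier, the median was shortest for the 11 MAP3Ks tested (1.06 h in KO maDC, 1.14 h in WT maDC). It was longest for the 8 MAPKs (1.43 h in KO, 1.44 h in WT), with the 5 MAP4Ks (1.14 h in KO, 1.25 h in WT), the 6 MAP2Ks (1.19 h in KO, 1.18 h in WT) and the 3 MAPKAPKs (1.38 h in KO, 1.34 h in WT) between them. This order rests on the filter and the times used. With a minimum mean of 5 RPKM the MAP4Ks were longest (1.53 h in KO maDC, 1.64 h in WT maDC). With no filter, without the 3 h libraries, or from 3 h to 6 h only the MAP2Ks were shortest in WT maDC (1.22 h, 1.33 h and 2.04 h). From 3 h to 6 h only, the MAP3Ks were the longest in WT maDC (3.34 h), above the MAPKs (2.59 h). The tiers overlapped: MAP3Ks ran between 0.774 and 1.90 h in KO maDC and between 0.814 and 2.04 h in WT maDC, and MAPKs between 1.11 and 2.05 h in KO maDC and between 1.18 and 2.86 h in WT maDC.

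**Figure D1:**
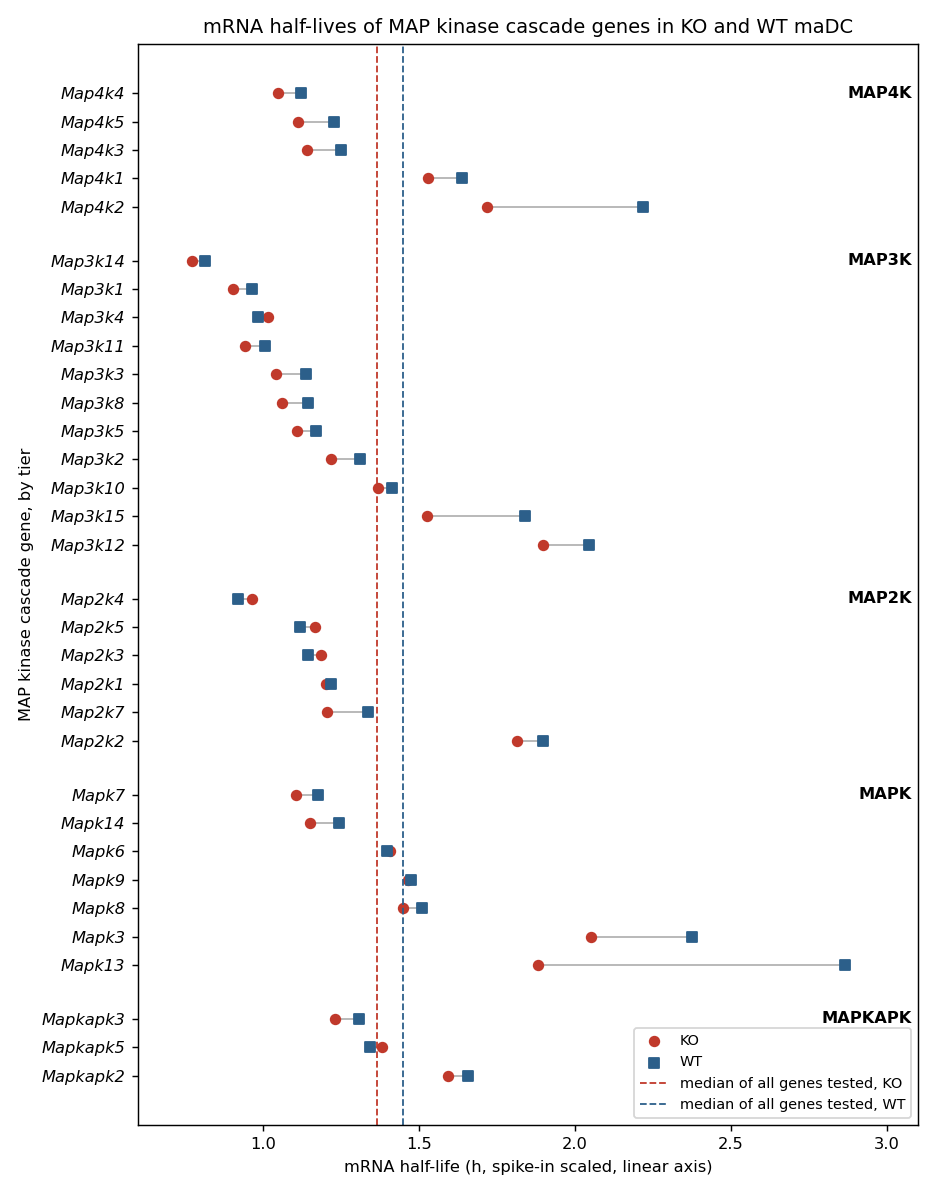
mRNA half-life in hours (x axis, linear) of 32 of the 33 cascade genes tested, ordered within tiers by the WT value; circles are KO maDC, squares WT maDC, 1 library per time. Dashed lines mark the median of all genes tested, 1.37 h in KO and 1.45 h in WT; most MAP3Ks lie left of both lines, and Mapk13 has the widest gap between genotypes (1.88 h in KO, 2.86 h in WT).

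In the MAP4K tier, Map4k4 (HGK), a kinase upstream of JNK, was the most abundant member, at 168, 48.5 and 42.0 RPKM in KO maDC at 0, 3 and 6 h and at 159, 45.4 and 46.3 RPKM in WT maDC. Map4k2 (germinal centre kinase) was the longest-lived of this tier, at 13.96, 10.3 and 11.6 RPKM in KO maDC and 11.8, 11.5 and 11.5 RPKM in WT maDC. In WT maDC these values differed little over 6 h, and in KO maDC they were lower at 3 and 6 h than at 0 h. Those of Map4k4 were lower at 3 and 6 h than at 0 h in both cultures, and by a larger fold. Relative to its 0 h amount, Map4k2 kept 3.32-fold more than Map4k4 at 6 h in KO maDC and 3.35-fold more in WT maDC. Map4k3 and Map4k5, which have been placed upstream of JNK as well, had half-lives of 1.14 and 1.11 h in KO maDC and of 1.25 and 1.23 h in WT maDC. Map4k1 (HPK1), known as a brake on antigen receptor signalling, had 1.53 h in KO maDC and 1.64 h in WT maDC.

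The MAP3K tier held the fastest and some of the slowest mRNAs of the cascade. Map3k14 encodes NIK, the kinase that starts the non-canonical NF-κB route, and lies on chromosome 11 (103219762 to 103267472, minus strand). It was read at 114, 12.7 and 11.2 RPKM in KO maDC and at 95.9, 10.8 and 10.7 RPKM in WT maDC, so nearly all of its loss fell before 3 h in both cultures. Its half-life was 0.774 h in KO maDC and 0.814 h in WT maDC, at the 0.646 and 0.722 percentile of all genes tested in the same libraries. It was also the most abundant MAP3K at 0 h. Its 3′UTR of 1263 bases held 0 copies of ATTTA.

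Map3k1 (MEKK1), a kinase with a ubiquitin ligase domain, followed with 58.2, 10.3 and 10.7 RPKM in KO maDC and 54.6, 10.1 and 11.4 RPKM in WT maDC. Map3k11 (MLK3), which acts on JNK, had 34.6, 6.98 and 6.97 RPKM in KO maDC and 29.3, 6.09 and 6.74 RPKM in WT maDC. By RPKM, both were thus low by 3 h and close to that value at 6 h. With spike-in scaling, their amounts at 6 h were 0.594 and 0.583 times those at 3 h in WT maDC. In KO maDC they were 1.41 and 1.36 times those at 3 h. Their half-lives were 0.904 and 0.942 h in KO maDC and 0.966 and 1.01 h in WT maDC. At the other end, Map3k12 (DLK), best known from neurons, had 11.9, 10.46 and 11.1 RPKM in KO maDC and 12.0, 11.03 and 9.69 RPKM in WT maDC. Map3k12 kept 9.44-fold more of its 0 h amount than Map3k14 at 6 h in KO maDC and 7.17-fold more in WT maDC, although Map3k12, and not Map3k14, holds the TATTTAT shown above, 32 bases into its 3′UTR. Map3k15 (ASK3), at 2.297 to 3.90 RPKM in KO maDC and 2.63 to 3.68 RPKM in WT maDC, was also long-lived, with 1.53 h in KO maDC and 1.84 h in WT maDC.

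Map3k8 encodes Tpl2 (Cot), the MAP3K through which TLR4 reaches MEK and ERK. It had 16.6, 3.58 and 7.70 RPKM in KO maDC and 15.1, 3.29 and 8.31 RPKM in WT maDC. Both cultures were thus lowest at 3 h and higher again at 6 h, 2.12-fold in KO maDC and 2.48-fold in WT maDC by RPKM. With spike-in scaling, the amount at 6 h was 2.88-fold that at 3 h in KO maDC and 1.31-fold in WT maDC. In KO maDC such a higher scaled amount at 6 h was found for 30 of 33 members and for 83.5% of all genes tested, as the factor of the KO 6 h library exceeds that of the KO 3 h library. In WT maDC it was found for Map3k8 alone of the 33 members and for 0.864% of all genes. Map3k8 was also the only member whose ratio of 6 h to 3 h exceeded that of the median gene by 2-fold or more in both cultures, which held for 15 of 10531 genes (0.142%). Its half-lives (1.06 h in KO maDC and 1.14 h in WT maDC) therefore combine a fast loss to 3 h with a higher amount at 6 h.

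Tpl2 protein is held in a complex with the NF-κB1 precursor and the adaptor ABIN-2, encoded by Nfkb1 and Tnip2. Tnip2 had 29.5, 18.6 and 25.6 RPKM in KO maDC and 23.6, 15.5 and 23.8 RPKM in WT maDC, lowest at 3 h in both cultures. By RPKM this also held for Map3k1, Map3k2, Map3k15 and Mapk8, and its share over all genes was not computed. With spike-in scaling, Tnip2 in WT maDC was lower at 6 h than at 3 h, unlike Map3k8. Nfkb1 had 72.2, 20.3 and 18.8 RPKM in KO maDC and 67.8, 19.0 and 18.6 RPKM in WT maDC, with no higher value at 6 h.

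In the MAP2K tier, the MEK kinases that phosphorylate ERK differed in decay. Map2k1 (MEK1), the most abundant MAP2K, had 78.1, 32.8 and 25.1 RPKM in KO maDC and 71.3, 31.1 and 16.1 RPKM in WT maDC. Map2k2 (MEK2) had 42.8, 37.5 and 33.2 RPKM in KO maDC and 42.3, 35.98 and 29.1 RPKM in WT maDC. Map2k1 was the higher of the pair at 0 h in both cultures and Map2k2 at 3 and 6 h in both. Relative to 0 h, Map2k2 kept 2.40-fold more than Map2k1 at 6 h in KO maDC and 3.04-fold more in WT maDC.

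The MKK kinases of the stress branches were shorter-lived than Map2k2. Map2k3 (MKK3), which acts on p38, had 34.4, 14.1 and 10.7 RPKM in KO maDC and 35.3, 12.4 and 7.86 RPKM in WT maDC. Its partner on p38, Map2k6 (MKK6), was below the filter, at 0.852, 0.392 and 0.255 RPKM in KO maDC and 0.904, 0.318 and 0.584 RPKM in WT maDC. Map2k4 (MKK4), which acts on JNK and p38, had 18.03, 4.18 and 3.31 RPKM in KO maDC and 19.1, 3.64 and 2.28 RPKM in WT maDC, and its half-life (0.965 h in KO maDC, 0.920 h in WT maDC) was the shortest of the tier. Map2k7 (MKK7), which is specific for JNK, started at a similar level and ended higher, with 16.8, 6.39 and 6.61 RPKM in KO maDC and 15.8, 6.74 and 6.72 RPKM in WT maDC. Map2k7 kept 2.11-fold more of its 0 h amount than Map2k4 at 6 h in KO maDC and 3.45-fold more in WT maDC. Map2k5 (MEK5), which acts on ERK5, had 12.0, 4.67 and 3.48 RPKM in KO maDC and 12.3, 3.84 and 2.77 RPKM in WT maDC.

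In the MAPK tier, Mapk3 (ERK1; chromosome 7, 126759601 to 126765819, plus strand) was the most abundant cascade gene, at 234, 231 and 240 RPKM in KO maDC and 214, 218 and 247 RPKM in WT maDC. Its RPKM thus differed little over 6 h in either culture. With spike-in scaling, Mapk3 kept 32.5% of its 0 h amount at 6 h in KO maDC and 22.1% in WT maDC, against a median over the tier of 16.0% in KO maDC and 7.56% in WT maDC. Its half-life was 2.05 h in KO maDC and 2.38 h in WT maDC, at the 88.1 and 89.5 percentile of all genes tested in the same libraries. Its annotated transcript has a 3′UTR of 612 bases with 0 copies of ATTTA.

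The JNK kinases Mapk9 and Mapk8 had half-lives of 1.46 and 1.45 h in KO maDC and of 1.47 and 1.51 h in WT maDC. Mapk9 (JNK2) had 14.01, 8.29 and 7.81 RPKM in KO maDC and 15.7, 8.61 and 7.27 RPKM in WT maDC. Mapk8 (JNK1) had 3.86, 2.11 and 2.28 RPKM in KO maDC and 3.71, 1.92 and 2.09 RPKM in WT maDC. At 6 h Mapk9 had kept 0.934 times as much of its 0 h amount as Mapk8 in KO maDC and 0.812 times as much in WT maDC. Mapk10 (JNK3), best known from the nervous system, was at or below 0.0280 RPKM in KO maDC and 0.0131 RPKM in WT maDC.

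Of the p38 kinases, Mapk14 (p38 alpha), the main p38 of immune cells, had 41.8, 15.6 and 12.4 RPKM in KO maDC and 40.3, 17.1 and 11.1 RPKM in WT maDC. Mapk13 (p38 delta) was lower at 0 h and longer-lived, keeping 2.52-fold more of its 0 h amount than Mapk14 at 6 h in KO maDC and 4.21-fold more in WT maDC. The genes are neighbours on the plus strand of chromosome 17 (Mapk14 at 28691329 to 28748406, Mapk13 at 28769297 to 28780233). Mapk11 and Mapk12, the p38 beta and gamma genes, are likewise neighbours, on chromosome 15, and were both below the filter, with at most 0.225 RPKM in any library. Mapk6 (ERK3), an atypical MAPK that binds the kinase MK5, had half-lives of 1.41 h in KO maDC and 1.40 h in WT maDC. MK5 itself, encoded by Mapkapk5, had 1.38 h in KO maDC and 1.34 h in WT maDC.

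Mapkapk2 (MK2) was the most abundant MAPKAPK, at 127, 92.3 and 76.4 RPKM in KO maDC and 145, 102 and 78.3 RPKM in WT maDC. Mapkapk3 (MK3), its close relative, had 35.1, 14.8 and 13.2 RPKM in KO maDC and 35.5, 14.9 and 13.8 RPKM in WT maDC. Mapkapk2 kept 1.59-fold more than Mapkapk3 at 6 h in KO maDC and 1.38-fold more in WT maDC, relative to 0 h.

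**Figure D2:**
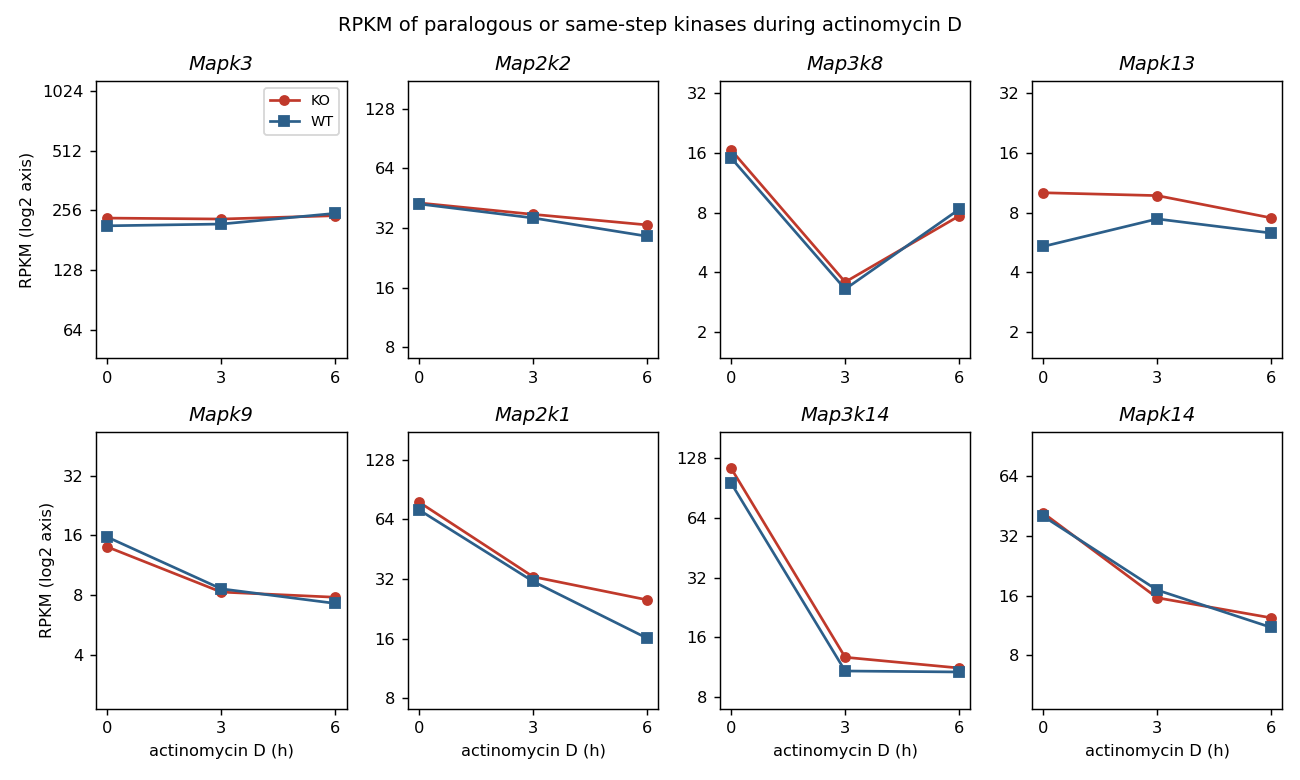
RPKM (y axis, log2 scale) against hours of actinomycin D (x axis) for 8 cascade genes in KO maDC (circles) and WT maDC (squares), 1 library per point; each y axis spans the same fold range. Mapk3 stays nearly level and Map2k2 is lower by less than Map2k1 at 6 h, Map3k14 loses most of its RPKM before 3 h, and Map3k8 is lowest at 3 h in both cultures.

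The question put to the KO was whether these mRNAs differ in level or decay without Mettl3. Relative to the median gene, 32 of 33 members lay within 1.5-fold of WT at all 3 times (97.0%, against 79.3% of all genes tested). The median over members of log2 KO over WT, averaged over the times, was -0.03, and the members ran between -0.33 and 0.47. The median gene itself had a log2 ratio of 0.40, -0.26 and 1.19 at 0, 3 and 6 h with spike-in scaling, and it is this shift that was taken off. By the rule for level (at least 1.5-fold apart at each of the 3 times, always in one direction), 0 of 33 members were counted as higher and 0 as lower in KO, and the rule counted 1.7% of all genes as higher and 0.845% as lower. At such shares a count of 0 among 33 genes is near the background.

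For decay, the ratio of half-lives in KO over WT, relative to the median gene, lay between 0.717 (Mapk13) and 1.099 (Map2k5). Of the 33 members, 30 were within 1.1-fold of 1, against 72.4% of all genes tested. This bound was not among the planned rules, and Map2k5, Map2k4 (1.096), Mapkapk5 (1.095) and Map2k3 (1.094) lay just inside it. Outside it were Mapk13, Map4k2 (0.838) and Map3k15 (0.890), each with the shorter relative half-life in KO. By the rule for decay (half-lives 1.5-fold or more apart and both rates differing in the same direction), 0 of 33 members were faster and 0 slower in KO. Over all genes it counted 0.902% as faster and 1.04% as slower, so these counts too are near the background. Log2 half-lives in KO and WT went together across the 33 members (Pearson 0.96, Spearman 0.96), as a description across genes. They did so across all genes tested as well (Pearson 0.86, Spearman 0.94). All members share the same 6 libraries and factors.

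**Figure D3:**
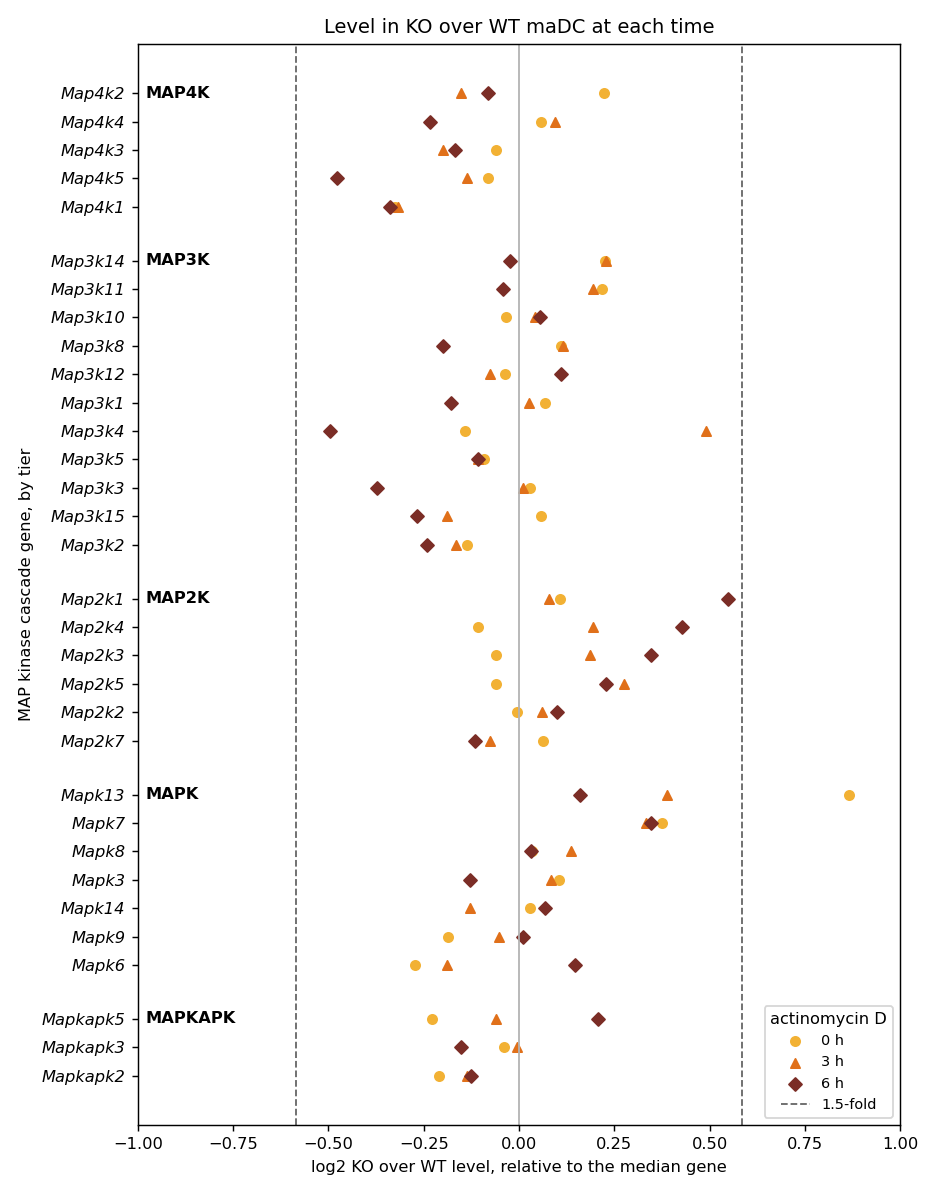
log2 of KO over WT level relative to the median gene (x axis) for 32 of the 33 cascade genes tested, by tier, at 0 h (circles), 3 h (triangles) and 6 h (diamonds), 1 library per genotype and time. Dashed lines mark 1.5-fold; 31 of the genes drawn stay between them at all 3 times, and Mapk13 at 0 h (0.86) lies outside.

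On the same side of the median gene at all 3 times lay 11 members (33.3%, against 53.1% of all genes tested), 4 above it and 7 below. Mapk7 (ERK5), the MAPK downstream of Map2k5, had 25.9, 8.28 and 7.84 RPKM in KO maDC and 19.6, 6.55 and 5.77 RPKM in WT maDC. Its log2 ratio was 0.37, 0.33 and 0.35 at 0, 3 and 6 h, each with a standard error from counting of 0.055 to 0.105. Map4k1 stood lowest, with 12.0, 7.66 and 7.28 RPKM in KO maDC and 14.8, 9.56 and 8.67 RPKM in WT maDC. Its log2 ratio was -0.33, -0.32 and -0.34, with counting errors of 0.075 to 0.101, and its mean over the times was 0.11 with spike-in scaling when not centred on the median gene. By RPKM, KO maDC was thus above WT maDC for Mapk7 and below it for Map4k1 at each time, but neither gene reached 1.5-fold and no replicate shows how far cultures of the same genotype differ.

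Map3k4 (MEKK4), which acts on JNK and p38, lay on both sides of the median gene. It had 4.03, 1.12 and 0.675 RPKM in KO maDC and 4.39, 0.767 and 0.928 RPKM in WT maDC. Its log2 ratio was 0.49 at 3 h (counting error 0.20) and -0.50 at 6 h (counting error 0.23), on about 131 and 67 reads in the KO 3 h and 6 h libraries and 86 and 98 reads in the WT 3 h and 6 h libraries. At 6 h, 5 of the 6 MAP2Ks were above the median gene, by up to 0.55 for Map2k1. This did not hold at every time. The median of the MAP2K tier was -0.03, 0.13 and 0.29 at 0, 3 and 6 h. For the 11 MAP3Ks it was 0.03, 0.03 and -0.18.

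Mapk13 was the exception among the 33 members. It had 10.1, 9.77 and 7.54 RPKM in KO maDC and 5.41, 7.45 and 6.32 RPKM in WT maDC. KO maDC had the higher value at every time, with the widest gap before actinomycin D. Relative to the median gene, its log2 ratio was 0.86, 0.39 and 0.16 at 0, 3 and 6 h, with counting errors of 0.098, 0.089 and 0.104. Its half-life was 1.88 h in KO maDC and 2.86 h in WT maDC. Mapk13 was not counted as faster in KO, since its half-life ratio relative to the median gene (0.717) was short of 1.5-fold.

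The summed neutrophil markers, like Mapk13, had their widest gap at 0 h, but single markers differed in course. By RPKM, Mapk13 was 1.87-fold, 1.31-fold and 1.19-fold higher in KO than in WT maDC at 0, 3 and 6 h, and the summed level of the 10 neutrophil markers was 1.93-fold, 1.29-fold and 1.01-fold higher. Taken singly, 9, 9 and 5 of the 10 markers were higher in KO maDC at 0, 3 and 6 h. Lcn2 was the largest part of the sum at 6 h, with 4556 RPKM in KO maDC and 4333 RPKM in WT maDC. At 0 h it had 4150 RPKM in KO maDC and 3281 RPKM in WT maDC. Ltf had 165 RPKM in KO maDC and 36.4 RPKM in WT maDC at 0 h, and 12.0 and 4.69 RPKM at 6 h. Mmp8 was lower at each time, with 34.8, 26.4 and 15.0 RPKM in KO maDC and 52.2, 65.6 and 38.2 RPKM in WT maDC. S100a8, among the markers that make up most of the sum, was lower at 6 h, with 1233 RPKM in KO maDC and 1539 RPKM in WT maDC. Of these markers, 8, 8 and 7 were above 1 RPKM in KO maDC and 8, 7 and 7 in WT maDC, with Elane, which marks early stages, at most 0.204 RPKM in any library. The part of neutrophil RNA in the Mapk13 values was not tested, and more cells of a type and more RNA per cell cannot be told apart in bulk RNA.

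**Figure D4:**
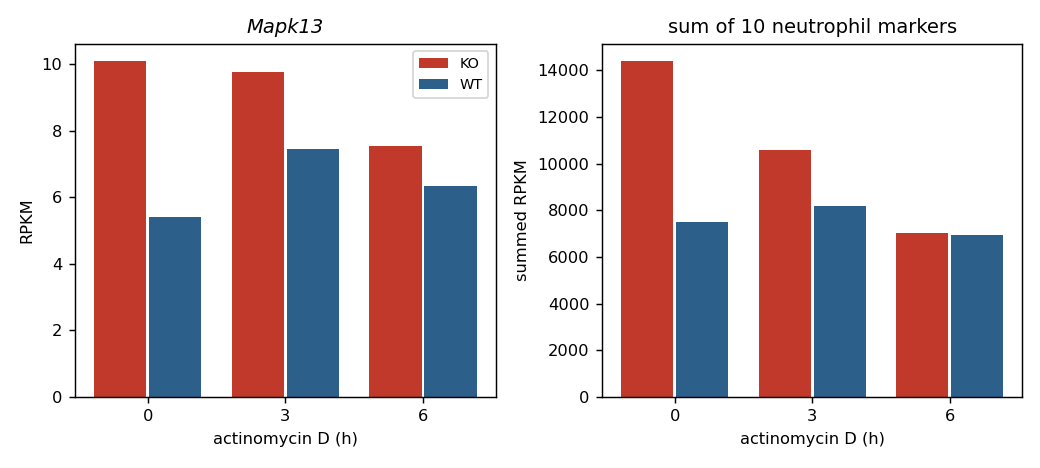
Left, RPKM of Mapk13; right, summed RPKM of the 10 neutrophil markers (y axes, linear from 0), at 0, 3 and 6 h of actinomycin D in KO maDC (left bar of each pair) and WT maDC (right bar), 1 library per bar. Both are furthest apart at 0 h, 10.1 in KO against 5.41 RPKM in WT for Mapk13 and 14408 in KO against 7481 RPKM in WT for the markers.

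AU-rich letters and an m6A motif were set beside the half-lives. Across the 33 members, the Spearman correlation of the WT half-life was 0.12 with copies of ATTTA per kilobase of 3′UTR and 0.06 with 3′UTR length. The first was -0.17 across all genes tested that had a 3′UTR. The second was -0.27 across all genes tested that had a transcript, including those without a 3′UTR. For GGACT, a form of the consensus at which m6A is written, searched on the sense strand of the whole mRNA, the correlation with the WT half-life was -0.24, against -0.02 across all genes tested that had a transcript. With the difference in decay between KO and WT relative to the median gene it was 0.10, against -0.04 across all genes. Mapk3 held 0 copies of GGACT and Map2k7 held 9. Both were within 1.1-fold of WT in relative half-life, as were 30 of the 33 members, so this does not tell them apart. In sparse sets of this size such weak correlations are no finding, and a match of letters is not a site.

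The 10 members below the filter were Map2k6, Map3k6, Map3k9, Map3k13, Map3k19, Mapk4, Mapk10, Mapk11, Mapk12 and Mapk15. None exceeded 0.904 RPKM in any library. The member just inside the filter was Map3k5 (ASK1), with a mean of 1.75 RPKM, and the one just outside was Map2k6, with 0.551 RPKM.

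Of 30 further genes of the pathway outside the symbol rule (RAF kinases and KSR scaffolds, STE20 kinases related to MAP4Ks, kinases downstream of MAPKs, scaffolds, and the partners of Tpl2), 25 passed the filter, and 0 were counted by any of the rules. Over all genes tested the rules counted 1.7% as higher, 0.845% as lower, 0.902% as faster and 1.04% as slower in KO. A count of 0 among 25 genes is near that background. The median half-life of the 25 genes was 1.35 h in KO maDC and 1.46 h in WT maDC. The longest half-lives were those of Lamtor2, part of the lysosomal complex that holds a MEK1 scaffold (2.37 h in KO maDC, 2.57 h in WT maDC), and Araf, a RAF kinase (1.85 h in KO, 2.07 h in WT). The shortest were those of Rps6ka5 (MSK1), a histone kinase downstream of ERK and p38 (0.902 h in KO maDC, 0.950 h in WT maDC), and Mknk2, which phosphorylates eIF4E (1.00 h in KO maDC, 1.04 h in WT maDC). The median log2 ratio of KO to WT, relative to the median gene, was -0.01 over the 25 genes. It was highest for Mink1, a STE20 kinase close to Map4k4 (0.45), and for Taok3, another STE20 kinase (0.35). It was lowest for Mapkbp1, a JNK scaffold (-0.30), and for Rps6ka5 (-0.27).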

How the data were processed

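Poly(A) RNA of 6 libraries was analysed, 1 per genotype and time. Groups came from the sample labels. Per the submitters' processing notes, reads were handled with bcl2fastq, TopHat2 2.0.14 and Cuffnorm on mm10; no source used here names the gene annotation or the strand setting, so overlapping genes may share reads. The study's methods speak of more than a single pair of littermates for this assay, and the number of mice behind each library is not stated.

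The deposited values are RPKM, stored by the authors as RPKM plus 1 times a factor per library; dividing each column by its lowest value and subtracting 1 gave back RPKM. Of 23863 rows, 27 with dates in place of symbols were left out. The 2 columns of the authors' own lifetimes were not used. A pseudocount of 0.1 RPKM was added, which understates differences of low genes, and the filter kept genes averaging 1 RPKM or more. Library factors were the median log2 ratios of the 75 of 92 ERCC transcripts above 0 in all libraries. Decay rates are log2 units lost per h, and 2 over the sum of the rates to 3 h and to 6 h gave the half-life, after the study's formula; rates under 0.02 per h were set to 0.02. Levels and rate differences are relative to the median gene. With 1 library per group, rules of size took the place of tests. Depth was estimated from the value of a single read in genes with a single transcript; standard errors from counting rest on it, treat reads as independent and leave out variation between cultures.

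Coordinates, 3′UTRs and transcripts came from GENCODE vM21 (mm10), with the principal transcript of each gene, found for all 43 members and for 9820 of the genes tested; these are annotated 3′UTRs, not ones measured in these cells. Python 3.11.15, numpy 2.4.6, pandas 2.3.3, scipy 1.17.1 and matplotlib 3.10.9 were used, and the calculation was tested on simulated data. The members and gene lists were chosen with earlier results of these data known. RPKM in every library is given for the 5 tested members with the shortest and the 5 with the longest WT half-life (mean of at least 5 RPKM), the most abundant member of each tier, those with the highest and lowest level, and kinases of the LPS route; Mapk7 and Map3k4 were added after their values were seen, and of the other pathway genes those at the ends of each range are named. Of the tested members, 1 is in the counts and medians but is not reported by itself or drawn here. The list gene Mapk8ip4 was read as Spag9. Alternatives covered the factors, times, rate estimate, pseudocount, filter, fold and centring.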

Additional observations from a re-analysis of the deposited data

Results flagged for a closer look

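By RPKM, Mapk13 lay on opposite sides of its 0 h value in the cultures, though in KO maDC it was nearly level at 3 h. Relative to 0 h, its log2 RPKM was -0.047 at 3 h and -0.42 at 6 h in KO maDC, and 0.45 at 3 h and 0.22 at 6 h in WT maDC. Both later KO libraries thus lay below their 0 h library and both later WT libraries above theirs. The KO values at 0 and 3 h rest on about 589 and 619 reads. With spike-in scaling, Mapk13 was lower at 3 and 6 h than at 0 h in both cultures. Its scaled amounts were 13.2, 2.98 and 3.13 in KO maDC and 5.51, 2.73 and 1.23 in WT maDC. The difference between the cultures was not tested, as each group is 1 library. The summed neutrophil markers were 14408, 10603 and 7007 RPKM in KO maDC and 7481, 8201 and 6923 RPKM in WT maDC at 0, 3 and 6 h, and their part in this result was not tested.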

How the results depend on the processing

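No paired analysis was possible because each genotype and time is a single library. The sign of the members' median level, -0.03 as reported, changed under the settings given at the end, and that of Map4k1, -0.33 as reported, was 0.11 when not centred on the median gene. Of the summary values 142 (medians and counts) stayed within their bounds and 42 moved, and of values for single genes 128 stayed and 50 moved. A half-life moved if it changed by more than 1.5-fold, and a count of 0 if it changed at all. A level moved if it changed by more than its standard deviation over the times. The tier medians lay within 1.5-fold of each other, so these tallies do not show whether the order of the tiers held. Half-lives in hours depended on the scaling and the times. With no spike-in scaling, the medians in KO and WT were 2.91 and 2.80 h for all members, 2.58 and 2.80 h for MAP4Ks, 2.20 and 2.32 h for MAP3Ks, 2.87 and 2.49 h for MAP2Ks, 4.74 and 3.97 h for MAPKs and 4.24 and 3.32 h for MAPKAPKs. The order of the members' medians in KO and WT was thus turned round there. Without the 3 h libraries, which gives the same values as the least-squares slope, the KO medians were 1.96 h for all members, 1.91 h for MAP4Ks, 1.73 h for MAP3Ks, 1.81 h for MAP2Ks, 2.27 h for MAPKs and 2.22 h for MAPKAPKs. From 3 h to 6 h only, the KO medians all stood at the limit of 50 h set by the lowest rate allowed, since scaled amounts were higher at 6 h, and the WT medians were 2.72 h for all members (above the 2.67 h of all genes tested), 3.25 h for MAP4Ks, 3.34 h for MAP3Ks, 2.04 h for MAP2Ks, 2.59 h for MAPKs and 2.31 h for MAPKAPKs. The count of members faster in KO was 3 with no spike-in scaling (Map3k15, Map4k2 and Mapk13), beside 7.17% of all genes. It was 1 of 33 from 3 h to 6 h only (Map3k4), beside 11.2% of all genes. With no filter it was 1 of 43 (Mapk12, a gene at or below 0.11 RPKM), beside 4.74% of all genes. The median level was 0.019 without the 6 h libraries, 0.011 with no filter and 0.41 when not centred on the median gene; the cause of the other moves was not tested. No count for level moved. Depth limits values near the filter, where 67 reads lie behind the lowest.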
